A study of Mus musculus with 16 samples.

Results

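The named small nuclear RNAs (snRNAs) were the rows whose gene symbol begins with Rnu, without the U3 and U73 genes (Rnu3 and Rnu73), which belong to the small nucleolar RNAs. There were 10 such rows among 18488 features, and the table held 703 features of the snRNA class in all. They were 4 copies of U1 (Rnu1a1, Rnu1b1, Rnu1b2 and Rnu1b6), U2 (Rnu2-10), U5 (Rnu5g), a U6 pseudogene (Rnu6-ps2), U7 (Rnu7) and both RNAs that recognise minor introns, U11 (Rnu11) and U12 (Rnu12). U7 does not take part in splicing, since it guides the 3′ end processing of histone mRNAs, so the set is wider than the spliceosome. The genes of U4 and of functional U6 are not analysed here. In PS19 cortex no named snRNA passed the adjusted test against WT. In limma, the main test used here, Rnu12 was 1.58-fold higher in PS19 and was the only named snRNA with an unadjusted p-value under 0.05, which it lost with the library code letter as a term (unadjusted limma p of 0.195). A close sequence copy of it, Gm24525, was 2.36-fold higher, with a limma adjusted p of 0.504. DESeq2 gave this copy an adjusted p of 0.0032 and edgeR one of 0.0972. With the library code letter as a term its unadjusted limma p was 0.0638.

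The small RNA libraries came from 10 mg of frozen prefrontal cortex of each of 16 mice, 8 PS19 and 8 wild-type (WT) littermates, aged about 9.6 months. PS19 mice were heterozygous (genotype PS19+/- in the labels) for a transgene that expresses human tau with the P301S mutation from the mouse prion protein promoter, and WT mice carried no transgene. Both groups held males and females in equal number per the methods of the study, but the labels do not give the sex of each mouse, so sex was not used in any fit. The libraries held 13187096 to 23058568 recovered reads, and snRNA features took 0.476 to 0.977% of the normalized signal. All 4 brain miRNAs used to check the tissue (miR-124-3p, miR-9-5p, miR-128-3p and miR-138-5p) were found, with a summed normalized count of 294666 to 1026090 in PS19 and 341505 to 953083 in WT. Each library has a code in the labels whose first letter is G for 8 PS19 and 2 WT libraries and F or A for the other WT libraries. What the letter means is not stated, so genotype and letter are largely confounded, and the difference of each named snRNA is also given with the letter as a term.

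Spliceosomal snRNAs are short nuclear RNAs that, with their proteins, recognise the ends of introns and cut them out. U1 pairs with the 5′ splice site and U2 with the branch point of nearly all introns, while U5 holds the exon ends together. A rare class of minor introns is recognised instead by U11 at the 5′ splice site and U12 at the branch point, and many neuronal ion channel genes carry such an intron. Most of these RNAs carry a short uridine-rich site on which a ring of Sm proteins assembles. Mammalian genomes hold many copies and pseudogenes of these genes, which matters here because a short read can come from any of them.

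The U12 sequences are shown first because Rnu12 had the largest difference among the tested named snRNAs, though it did not pass the adjusted test. Capitals mark the letters that set Rnu12 and its copies apart: in Rnu12 those that differ from Gm24525, and in each copy those that differ from Rnu12.
Rnu12: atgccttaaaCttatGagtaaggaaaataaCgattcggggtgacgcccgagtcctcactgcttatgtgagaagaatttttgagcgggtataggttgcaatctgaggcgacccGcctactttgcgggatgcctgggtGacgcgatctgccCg
Gm24525: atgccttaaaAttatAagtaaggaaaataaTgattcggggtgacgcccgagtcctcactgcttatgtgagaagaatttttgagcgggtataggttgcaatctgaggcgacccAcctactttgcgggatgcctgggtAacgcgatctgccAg
Gm23502: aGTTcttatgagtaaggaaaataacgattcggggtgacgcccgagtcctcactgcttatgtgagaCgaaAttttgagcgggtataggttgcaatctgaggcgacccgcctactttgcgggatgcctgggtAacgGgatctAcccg
Gm25703: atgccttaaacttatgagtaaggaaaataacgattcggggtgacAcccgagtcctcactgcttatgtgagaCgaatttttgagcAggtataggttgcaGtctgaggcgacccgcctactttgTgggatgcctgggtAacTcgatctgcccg
Sequences are GENCODE transcripts of the GRCm38 (mm10) assembly, written 5′ to 3′ as DNA. Rnu12 (ENSMUSG00000065176.1) lies at chr15:83149644-83149794 on the plus strand, is 151 nt long, overlaps no other gene and lies 260 nt from the protein-coding gene Poldip3. Gm24525 (ENSMUSG00000064851.1) lies at chr5:7177706-7177856 on the minus strand, within the protein-coding gene Zfp804b on the same strand. It is identical to Rnu12 at 145 of 151 positions, and its 6 substitutions, counted from the 5′ end of Rnu12, are C11A, G16A, C31T, G113A, G137A and C150A. Between positions 32 and 112 the sequences of Rnu12 and Gm24525 are identical over 81 nt, so a read that lies inside that stretch cannot be assigned to either by its letters. Gm25703, at chr2:129315329-129315479 on the minus strand, matches Rnu12 without a break over positions 1 to 44, and Gm23502, at chr14:21812711-21812855 on the plus strand, does so over positions 11 to 71. All 4 hold GTAAGGA, the stretch of U12 that pairs with the branch point of minor introns, which 1.28% of the 703 snRNA features hold when searched on the transcript strand.

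For U1, U2, U11 and U7, capitals mark the first match to an Sm-type motif, searched as ATTTNTG or ATTTTTTG on the transcript strand, with the longer form taken where both could match. The motif was held by 182 of 703 snRNA features (25.9%).
Rnu1a1: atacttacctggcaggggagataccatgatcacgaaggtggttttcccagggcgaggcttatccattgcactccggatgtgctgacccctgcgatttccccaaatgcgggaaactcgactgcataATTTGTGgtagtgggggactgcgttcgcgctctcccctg
Rnu2-10: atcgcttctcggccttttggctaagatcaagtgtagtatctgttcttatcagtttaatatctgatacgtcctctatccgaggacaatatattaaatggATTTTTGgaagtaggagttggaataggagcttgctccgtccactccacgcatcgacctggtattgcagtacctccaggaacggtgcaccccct
Rnu11: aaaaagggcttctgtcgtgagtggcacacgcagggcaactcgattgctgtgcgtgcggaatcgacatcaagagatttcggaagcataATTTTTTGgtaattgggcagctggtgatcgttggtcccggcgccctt
Rnu7: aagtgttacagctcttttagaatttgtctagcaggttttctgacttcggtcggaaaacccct
Rnu12 and Gm24525 held the motif at positions 75 to 81, within the stretch they share, and Gm23502 had no match. Rnu7 also had no match to these letters, and neither had Rnu6-ps2. Every U1 row held ACTTACCTG at positions 3 to 11, the stretch that pairs with the 5′ splice site, as did 6.97% of snRNA features. Rnu2-10 held GTAGTA, its branch point pairing stretch, at positions 33 to 38 (5.83% of snRNA features).

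The U1 rows differ from each other by a few letters. In the next sequence, capitals mark where Rnu1b6 differs from Rnu1a1.
Rnu1b6: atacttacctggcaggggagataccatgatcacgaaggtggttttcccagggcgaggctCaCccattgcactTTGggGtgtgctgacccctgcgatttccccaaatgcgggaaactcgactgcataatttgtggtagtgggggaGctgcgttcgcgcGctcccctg
Rnu1b6 has T60C, T62C, C73T, C74T, A77G and T156G against Rnu1a1, counted from the 5′ end of Rnu1a1, and 2 inserted letters. Rnu1b1 and Rnu1b2 have C33T, T60C, T62C, C73T, C74T and A77G with 1 inserted letter. Rnu1a1 (chr11:87422867-87423030, plus strand) lies within Tex14, while Rnu1b1 (chr3:96359953-96360117, minus strand), Rnu1b2 (chr3:96374021-96374185, plus strand) and Rnu1b6 (chr3:96460024-96460189, minus strand) lie on the same stretch of chromosome 3. Rnu2-10 lies at chr11:101658238-101658428 (plus strand), Rnu11 at chr4:132270080-132270213 (minus strand) and Rnu7 at chr6:124741225-124741286 (minus strand, within Grcc10).

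The rows are not independent measurements of 10 genes. Rnu1b1 and Rnu1b2 held identical values in all 16 libraries and count as 1 measurement. Rnu1b6 was identical to 2 unnamed rows, Gm24830 and Gm26232, and Rnu2-10 to Gm23849 and Gm24950. Rnu1a1 had 8 near-identical unnamed rows, defined as a correlation of at least 0.99 on the log2 scale with means within 2-fold: Gm22068, Gm22317, Gm22513, Gm22634, Gm23804, Gm24305, Gm25679 and Gm26444. Rnu1b1 and Rnu1b2 had 3 (Gm22042, Gm22614 and Gm25890), Rnu2-10 had 2 (Gm23971 and Gm26316) and Rnu5g had 1, Gm25313. A value for U1, U2 or U5 is therefore that of a group of copies, and which copy was transcribed was not resolved. By these definitions on values, Rnu11, Rnu12 and Rnu7 had no identical or near-identical row. Rnu12 is still not resolved from Gm24525, with which it shares 81 nt without a break.

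Levels were compared between snRNAs per kilobase of transcript, as normalized counts per kilobase over all 16 libraries. Of the named rows, Rnu1a1 was highest at 20301 ± 3766 (SD, n = 16), followed by Rnu2-10 at 19282 ± 3101. Rnu1a1 was above Rnu2-10 in 8 of 16 libraries, so that these named rows could not be ordered. Some unnamed U2 copies were higher, with a mean normalized count of 6246 for Gm23472 against 3683 for Rnu2-10, so the types U1 and U2 were not ordered. Rnu1b1 followed at 12595 ± 2778, then Rnu7 at 8366 ± 2568 and Rnu5g at 7578 ± 1320, with Rnu7 above Rnu5g in 11 of 16 libraries and overlapping ranges. Rnu1b6 (3561 ± 694) and Rnu12 (3042 ± 1564) also overlapped, with Rnu1b6 higher in 13 libraries. Rnu11 was far lower at 295 ± 66.5, below Rnu12 in all 16 libraries without overlap. Small RNA libraries capture fragments of these RNAs, and how well each is captured was not tested, so the order is that of sequenced fragments.

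**Figure D1:**
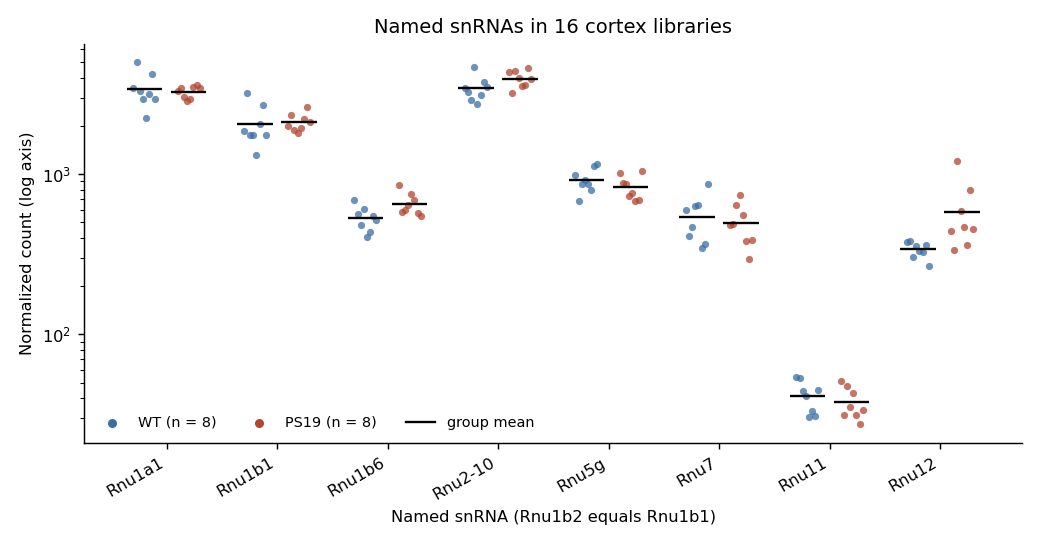
Normalized counts (log axis) of 8 distinct named snRNAs in 8 WT (blue) and 8 PS19 (red) libraries, each point a library and each black line a group mean. The PS19 points of Rnu12 reach from 337 to 1205 while the WT points lie between 267 and 381, and for the other snRNAs the groups overlap widely.

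Of the 10 named snRNAs, 9 passed the filter of a mean normalized count of at least 5. With limma on log2(normalized count + 1), which understates the change of low rows, 0 of 9 passed an adjusted p of 0.05 (Benjamini-Hochberg over 6024 features), and 0.0% of all tested features did. At an unadjusted p under 0.05, 1 of 9 was higher in PS19 and 0 were lower, beside 1.86% of all tested features higher and 2.14% lower. DESeq2 and edgeR on the recovered reads also called 0 of 9 after adjustment, with 2 (Rnu12 and Rnu1b6) and 1 (Rnu12) at an unadjusted p under 0.05. By that criterion DESeq2 took 4.7% and edgeR 4.4% of all tested features in either direction. The median log2 difference of the 8 distinct named rows was 0.03, against -0.02 for all tested features. The labels do not say that replicates of a group came from separate litters or batches, and p-values measure the spread between these mice.

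Rnu12, the snRNA of the minor branch point, had normalized counts from 337 to 1205 in PS19 with a median of 458. In WT it ran from 267 to 381 with a median of 344. PS19 replicates 3 (1205), 7 (790) and 4 (591) stood highest, replicates 5, 8 and 1 followed at 464, 453 and 442, and replicates 6 (361) and 2 (337) lay inside the WT range. Thus 6 of 8 PS19 libraries exceeded every WT library and the groups overlapped. The group means were 580 ± 290 in PS19 and 338 ± 39.4 in WT (SD, n = 8 each), with a coefficient of variation of 50.0% against 11.7%. The log2 difference was 0.66 ± 0.24 (SE), with a 95% interval of 0.17 to 1.15. In limma the unadjusted p was 0.0109 and the adjusted p 0.9998, so the difference did not pass the adjusted test, and the exact two-sided permutation test for this single row gave p = 0.0028. Leaving out PS19 replicate 3 lowered the difference to 0.49 (unadjusted limma p of 0.0269). With the library code letter as a term the difference was 0.52, with an unadjusted limma p of 0.195. That fit takes the difference from the letter G libraries alone, 8 PS19 and 2 WT, and the 2 WT libraries held 358 and 381, against 267 to 377 in the WT libraries of other letters. Fitted on the letter G libraries only, the unadjusted limma p was 0.246. Rnu12 rested on 286 to 1328 reads per library. As counts per recovered library total (CPM), PS19 libraries ran from 17.4 to 59.0 with a median of 31.8, and WT libraries from 15.4 to 24.7. On that scale 5 of 8 PS19 libraries exceeded every WT library, with replicates 3 and 7 at 59.0 and 58.8 and replicates 1, 2 and 6 inside the WT range.

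Rnu11, the partner of U12 at the minor 5′ splice site, ran from 27.4 to 50.9 in PS19 (median 34.4) and from 30.3 to 53.8 in WT (median 42.9), so the ranges coincided. The means were 37.6 ± 8.59 and 41.5 ± 9.37, with a log2 difference of -0.14 ± 0.21 and a 95% interval of -0.57 to 0.29 (exact permutation p = 0.397). The letter term gave a difference of -0.34, with an unadjusted limma p of 0.326. Rnu11 rested on 29 to 56 reads per library. Whether its difference departs from that of Rnu12 was not tested. The ratio of U12 to U11 per kilobase ran from 7.71 to 25.6 in PS19 (median 11.1) and from 5.29 to 10.3 in WT (median 7.03). The highest ratio was that of PS19 replicate 7, which had the second highest Rnu12 and the lowest Rnu11 of all libraries.

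Among the U12 copies, Gm24525 held the larger difference. It ran from 180 to 1027 in PS19 with a median of 236, and from 108 to 177 in WT with a median of 141. No WT library reached the lowest PS19 library, a separation in this direction seen in 6 of 6024 tested features (0.0996%). The same PS19 libraries led as for Rnu12, with 1027 in replicate 3, 607 in replicate 7 and 449 in replicate 4. The log2 difference was 1.24 ± 0.30 (95% interval 0.61 to 1.87, limma adjusted p = 0.504, exact permutation p = 0.000155). DESeq2 on the recovered reads, which called 0.249% of features, gave an adjusted p of 0.0032 and edgeR gave 0.0972. With the letter term the difference was 0.98, with an unadjusted limma p of 0.0638. Gm23502 (48.2 ± 10.1 in PS19, 37.0 ± 8.74 in WT) had a log2 difference of 0.38 ± 0.21 (exact permutation p = 0.0333, limma adjusted p = 0.9998). Gm25703 (9.36 ± 2.34 and 7.18 ± 5.26) had a log2 difference of 0.57 ± 0.35 (exact permutation p = 0.133). These differences were 0.43 for Gm23502 and 0.30 for Gm25703 with the letter term. The difference of Gm25703 was 0.34 without WT replicate 1 and 0.78 without WT replicate 5, where its unadjusted limma p was 0.0262.

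**Figure D2:**
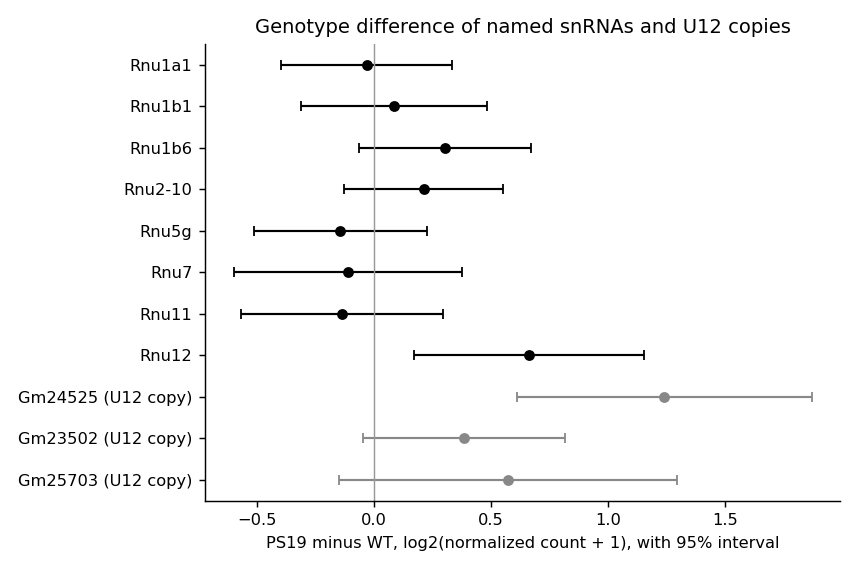
Log2 difference, PS19 minus WT, with its 95% interval from limma for the distinct tested named snRNAs (black) and 3 copies of U12 (grey). Only the intervals of Rnu12 (0.17 to 1.15) and Gm24525 (0.61 to 1.87) lie wholly above 0.

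Because Rnu12 and Gm24525 share most of their sequence, their values were set against each other within each library, a comparison chosen after the values were seen. Rnu12 minus Gm24525 ran from 127 to 228 in PS19 (median 181) and from 138 to 220 in WT (median 203). Its means were 180 ± 36.2 and 195 ± 26.0 normalized counts, a difference of -15.4 (exact permutation p = 0.342), whereas Rnu12 itself differed by 242 and Gm24525 by 258. The difference of the remainder was -9.26 with scaling to the library total, -31.0 with scaling to the snRNA total, -7.87 without PS19 replicate 6 and -23.6 without WT replicate 8, with an exact permutation p between 0.130 and 0.720 over these. The PS19 libraries with the highest Rnu12, replicates 3 and 7, had remainders of 178 and 183, within the WT range. Reads counted in both rows cancel in this subtraction, and an equal rise in both leaves the remainder unchanged. It is therefore not the signal of Rnu12 alone and cannot show which gene rose. Gm24525 amounted to 50.8 to 85.2% of Rnu12 in PS19 and to 35.6 to 49.4% in WT, with means of 64.1% and 42.2% and no overlap. The exact permutation p of this percentage was 0.000155, the smallest that 8 against 8 libraries can give, and among libraries of letter G it was 0.111. Gm24525 alone, already seen without overlap, gave the same exact permutation p, so that of the percentage is not separate evidence. How the authors' counting assigned reads that match both genes is not given in the sources used here, and whether some reads were counted in both rows was not tested.

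**Figure D3:**
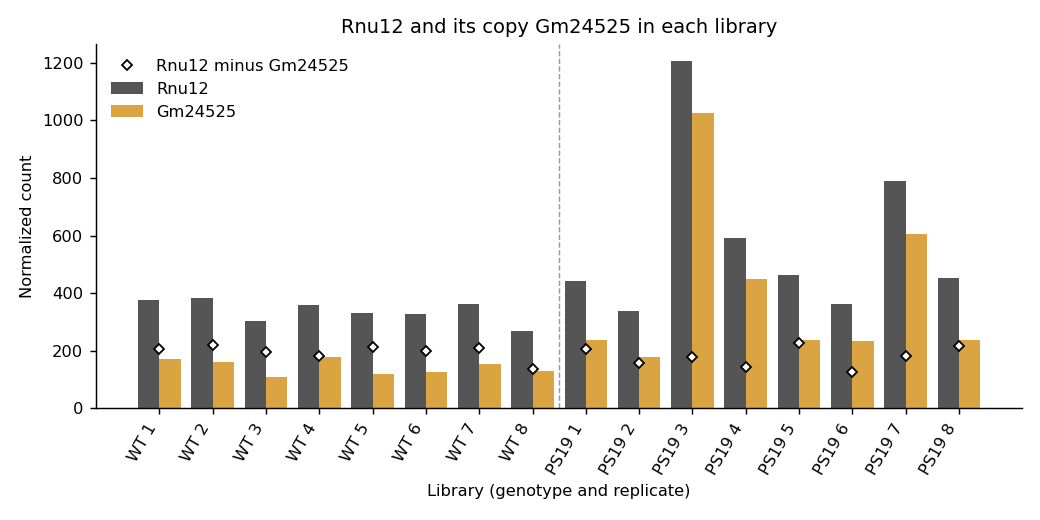
Normalized counts of Rnu12 (dark bars) and Gm24525 (yellow bars) in each library, WT left and PS19 right of the dashed line, with Rnu12 minus Gm24525 as diamonds. Both bars are tallest in PS19 3 (1205 and 1027) while its diamond, at 178, stays among those of the WT libraries. An equal rise in both bars leaves the diamond unchanged, so it does not show which gene rose.

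**Figure D4:**
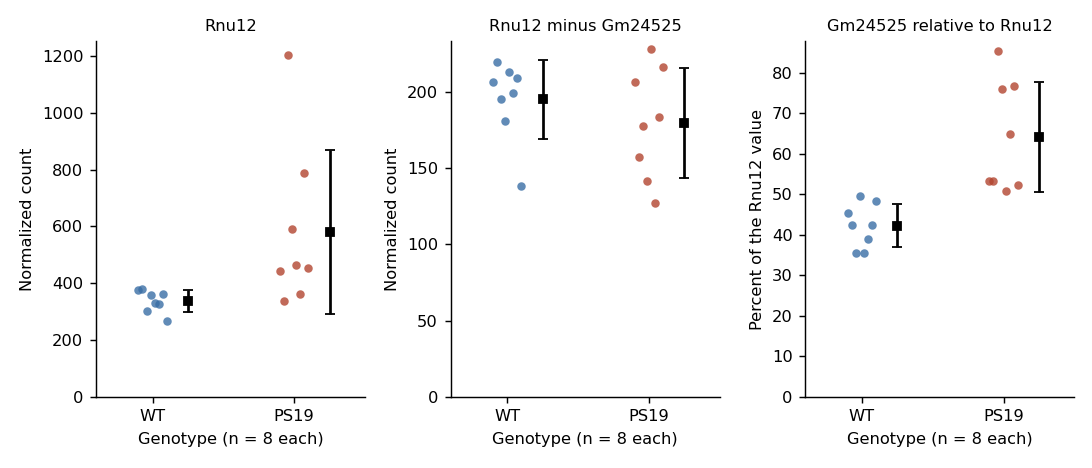
Rnu12, Rnu12 minus Gm24525 (both normalized counts) and Gm24525 as a percent of Rnu12 in WT and PS19, each point a library and each square a mean with its SD (n = 8 each). The genotypes overlap in the middle panel (127 to 228 in PS19, 138 to 220 in WT) and are apart in the right panel (50.8 to 85.2% and 35.6 to 49.4%). The middle panel does not show which gene rose.

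The features that followed Rnu12 most closely over the 16 libraries, of all tested ones, were Gm24525 (Pearson r = 0.97 and Spearman rho = 0.89 on the log2 scale), miR-155-5p (0.82 and 0.78), miR-6236 (0.82 and 0.84), Gm25202 (0.81 and 0.71) and mmu_circ_0006898 (0.78 and 0.79). Without PS19 replicates 3 and 7, the libraries farthest from the median, r was 0.90, 0.70, 0.82, 0.77 and 0.51 in that order. Within PS19 alone r was 0.98, 0.83, 0.84, 0.76 and 0.75, and within WT alone 0.73, 0.53, 0.62, 0.28 and 0.81. These were picked as the highest of 6024 correlations and share libraries and scaling, so no test is given. MiR-155-5p is an miRNA known from activated immune cells, and its mean was 82.5 ± 51.6 in PS19 and 44.3 ± 15.8 in WT (limma adjusted p = 0.9998). The means of miR-6236 were 12.7 ± 8.01 and 2.64 ± 2.28 (limma adjusted p = 0.409). Those of mmu_circ_0006898 were 8.85 ± 3.34 and 6.42 ± 1.64 (limma adjusted p = 0.9998). Of the marker lists, the 2 oligodendrocyte miRNAs had a summed normalized count of 18522 to 52332 in PS19 and 13365 to 46513 in WT (exact permutation p = 0.191), and their sum had an r of 0.63 with Rnu12. The 2 choroid plexus miRNAs (786 to 6772 and 548 to 4317, p = 0.546 by exact permutation) had an r of 0.55. The other lists had an r of 0.18 (3 muscle miRNAs, 2253 to 14631 in PS19 and 2867 to 10689 in WT), 0.16 (2 blood miRNAs, 5.69 to 41.1 and 1.90 to 29.9), 0.019 (1 liver miRNA, 138 to 654 and 132 to 387) and 0.0089 (the 4 brain miRNAs). The exact permutation p between genotypes was 0.191 or higher for all 6 lists. No listed miRNA was at 0 in every library, and their part in the Rnu12 difference was not tested.

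The 3 distinct U1 rows together took 50.6 ± 4.32% of the named snRNA signal in PS19 and 52.7 ± 6.73% in WT. This share adds rows of similar sequence, whereas U2 is counted from 1 row, so it does not order the types. Rnu1a1 ran from 2839 to 3604 in PS19 (median 3368) and from 2232 to 4991 in WT (median 3244), so all PS19 values lay inside the WT range. The WT libraries spread further, with a coefficient of variation of 25.0% against 8.71%, and the difference in spread was not tested. The log2 difference of Rnu1a1 was -0.03 ± 0.18 (95% interval -0.40 to 0.33, exact permutation p = 0.820), and -0.24 with the letter term. Rnu1b1 and Rnu1b2 ran from 1799 to 2630 in PS19 (median 2048) and from 1310 to 3197 in WT (median 1800), with a log2 difference of 0.08 ± 0.19 (exact permutation p = 0.601) that turned to -0.18 with the letter term.

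Rnu1b6 came closest to a difference among the remaining named snRNAs. It ran from 549 to 851 in PS19 with a median of 616, and from 402 to 691 in WT with a median of 532. All 8 PS19 libraries lay above the WT median, but only 2 lay above the highest WT library. The means were 652 ± 106 and 530 ± 93.6, with a log2 difference of 0.30 ± 0.18 and a 95% interval of -0.07 to 0.67 (limma adjusted p = 0.9998). The exact permutation test of this row gave p = 0.0246 and DESeq2 an unadjusted p of 0.0421, against 0.104 in limma. The letter term gave Rnu1b6 a difference of 0.14, with an unadjusted limma p of 0.638. As a percent of Rnu1a1, Rnu1b6 amounted to 15.8 to 25.8 in PS19 and 11.3 to 20.8 in WT. Besides its 2 identical rows, it was followed most closely by Gm26110 (r = 0.98), Gm25514 (r = 0.96) and Gm25189 (r = 0.94), all unnamed features of the snRNA class.

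Rnu2-10, the U2 snRNA, ran from 3181 to 4575 in PS19 (median 3945) and from 2743 to 4684 in WT (median 3349). The highest library of all was WT replicate 4, and 7 of 8 PS19 libraries lay above the WT median. The means were 3941 ± 482 and 3425 ± 606, with a log2 difference of 0.21 ± 0.16 (95% interval -0.13 to 0.55, exact permutation p = 0.0684). With the letter term this difference was 0.0051, with an unadjusted limma p of 0.985. U2 took 33.0 ± 2.33% of the named snRNA signal in PS19 and 30.6 ± 4.30% in WT.

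Rnu5g, the U5 snRNA that aligns the exons, ran from 681 to 1042 in PS19 (median 817) and from 676 to 1150 in WT (median 897). The means of 834 ± 141 and 924 ± 160 gave a log2 difference of -0.14 ± 0.18 (95% interval -0.51 to 0.22, exact permutation p = 0.259), which turned to 0.06 with the letter term. Rnu7, the histone processing RNA, ran from 295 to 741.1 in PS19 (median 485) and from 344 to 871 in WT (median 531). Of the named snRNAs above the filter it was the most variable in WT, with a coefficient of variation of 33.0% (the median over all tested features was 42.6%), and its log2 difference was -0.11 ± 0.23 (95% interval -0.60 to 0.38, exact permutation p = 0.624), and -0.09 with the letter term. Rnu6-ps2 had 0 to 3 reads per library and did not pass the filter. Its normalized counts were 1.07 ± 1.53 in PS19 and 0.479 ± 0.513 in WT (exact permutation p = 0.465), so no difference was detectable at these counts.

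The other 693 features of the snRNA class carry no Rnu name, and 109 of them passed the filter. In limma 0 passed the adjusted test, and 11 were higher and 0 lower at an unadjusted p under 0.05, beside 1.86% and 2.14% of all tested features. Their log2 differences had a median of 0.15, and 76 of 109 were above 0. The 109 rows held 107 distinct sets of values, and many are close in sequence, so they are not taken as independent measurements. With the letter term 1 was higher at an unadjusted p under 0.05, and in the fit without PS19 replicate 1 the count was 7. DESeq2 on the recovered reads called 1 after adjustment, Gm24525, and edgeR called 0.

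Each unnamed feature was placed with the named type to which it was at least 80% identical. The 15 U2 copies tested all had differences above 0 (median 0.17), and the 8 U5 copies tested all had differences below 0 (median -0.09), while 46.8% of all tested features were above 0. One U2 copy lay at 0.00074. The copies of a type are not independent measurements. Gm23849 and Gm24950 held the values of Rnu2-10, Gm23971 and Gm26316 were near-identical to it, and Gm25313 was near-identical to Rnu5g. With the letter term, whose fit rests on 2 WT libraries of letter G, the U2 direction was lost, with 7 of 15 copies above 0. The U5 direction reversed, with 8 of 8 copies above 0. Of 39 U1 copies tested, 23 were above 0, with 5 higher at an unadjusted p under 0.05 (1.86% of all tested features were). All 3 U12 copies were above 0 (median 0.57), the single U11 copy tested had a difference of 0.24, and of 341 U6 copies only 2 passed the filter. A further 41 tested features matched no named type, 4 of them higher at an unadjusted p under 0.05. Over all 109 unnamed features, 1 was higher by that criterion with the letter term.

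Gm25202, a U2 copy at chrX:14315401-14315591 on the minus strand, showed the largest difference of the U2 group. It has 8 substitutions against Rnu2-10 over 191 nt. Its normalized counts ran from 864 to 2050 in PS19 (median 1252) and from 659 to 1062 in WT (median 777), with 6 of 8 PS19 libraries above every WT library. PS19 replicates 4 (2050) and 3 (1918) were highest, and replicates 3, 4 and 7 were again the 3 highest, as for Rnu12. The log2 difference was 0.66 ± 0.21 (exact permutation p = 0.0034, limma adjusted p = 0.9998). With the letter term it was 0.47, with an unadjusted limma p of 0.194.

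**Figure D5:**
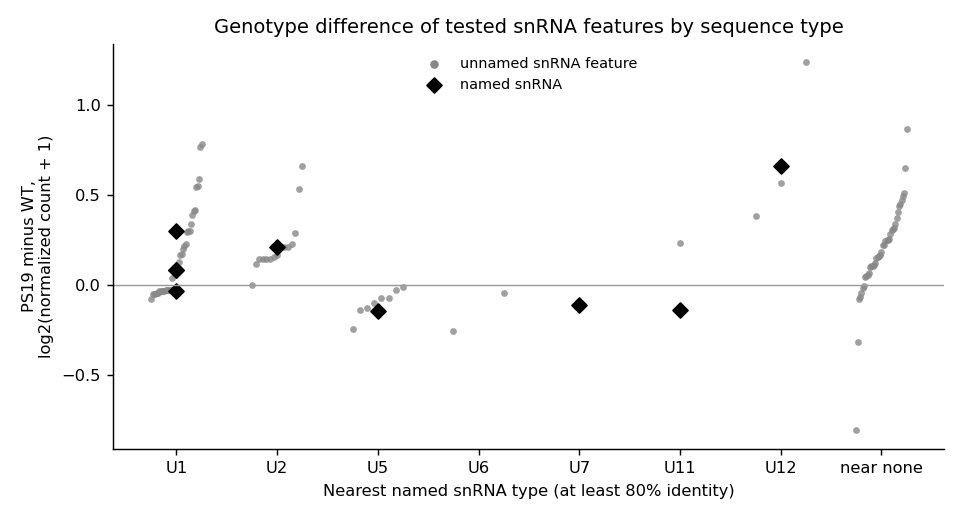
Log2 difference, PS19 minus WT, of each tested snRNA feature by the named type it is at least 80% identical to, with named snRNAs as black diamonds and unnamed features as grey points spread by rank. All 15 grey points of U2 lie above 0 and all 8 of U5 below 0, and points of a type are not independent measurements. With the library code letter as a term the U2 direction was lost (7 of 15 above 0) and the U5 direction reversed (8 of 8 above 0). The highest point is the U12 copy Gm24525 at 1.24.

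Small nuclear RNAs are themselves modified at sites set by guide RNAs, the small Cajal body RNAs (scaRNAs) and a few box C/D snoRNAs. Of the guide list, Scarna9, Scarna10, Snord7, Snord8 and Snord67 were found and all 5 passed the filter. In limma 0 of 5 were called after adjustment and 0 at an unadjusted p under 0.05, beside 4.0% of all tested features, and DESeq2 and edgeR called 0 after adjustment. The lowest unadjusted limma p was 0.136, and the median log2 difference was 0.14. Snord67, which guides methylation of U6, had means of 148 ± 43.7 in PS19 and 125 ± 56.3 in WT (exact permutation p = 0.249). Scarna10 had 88.2 ± 19.2 and 95.1 ± 23.1 (exact permutation p = 0.582). The 6 rows that the choice of names left out (Rnu3a, Rnu3b1 to Rnu3b4 and Rnu73b) had log2 differences from -0.05 to 0.28, none with an unadjusted limma p under 0.215.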

How the data were processed

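Libraries were grouped by the genotype label and numbered by the sample title (8 PS19, 8 WT). Per the methods of the study and the submitters' processing notes, the authors aligned single-end reads to mm10 with STAR 2.5.3a within COMPSRA, a small RNA annotation pipeline, and normalized with DESeq2 1.42.1. Strandedness, the treatment of reads that match several genes and the annotation release are not given in the sources used here.

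The deposited values were a normalized signal: the authors scaled the reads of each library by its size factor (normalized counts here). Dividing each library by its smallest value above 0 gave whole reads (tolerance 0.001), and 13187096 to 23058568 reads were recovered per library. The recovery is less certain for WT replicates 4 and 6, whose size factors were close to 1. The authors' own comparison columns (mean, log2 fold change, standard error, Wald statistic, p-value and adjusted p-value) were not used, and 0 columns of library values were left out.

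Features with a mean of at least 5 (6024 of 18488) were tested with limma 3.58.1 in R 4.3.3 on log2(normalized count + 1), with genotype as the term and Benjamini-Hochberg adjustment over all of them. Exact two-sided permutation tests over all assignments of libraries were used for single values. DESeq2 1.42.0 and edgeR 4.0.16 on recovered reads, other scalings, filters and pseudocounts, the library code letter, a replicate block and leaving out each library were alternatives. Sequences came from GENCODE transcripts of GRCm38 and were compared with blastn 2.17.0 and mafft 7.526. The sequence of U5 is not reported here. On simulated data with 200 changed features of 6024, limma called 77% of the features given a log2 change of 2 and 16% of those given 1.

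The rule for named genes took every member, its identical and near-identical rows, the 5 features most correlated with Rnu12 and with the next member by limma p, and, of the guide list, features with p under 0.05 and those with the highest means. The U12 copies were added by sequence identity. The members and lists were chosen with earlier results of these data known. All 56 pairs of libraries within a group differed beyond counting error.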

Additional observations from a re-analysis of the deposited data

Results flagged for a closer look

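Of 42 group values examined for a single library far from the others, 1 stood out, and chance gives about 2.1. Rnu12 minus Gm24525 was 138 normalized counts in WT replicate 8, against 181 in the nearest WT library, and this gap was 0.526179 of the range of the WT group, just past the limit used for 8 values. WT replicate 8 also had the lowest Rnu12 of all libraries (267). Without it, the difference of Rnu12 minus Gm24525 between genotypes was -23.6 (exact permutation p = 0.130).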

How the results depend on the processing

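The count of named snRNAs past the adjusted test was 0 in all 12 alternatives other than leaving out a library and in all 16 fits without 1 library. The count higher at an unadjusted p under 0.05 was 1, and it became 2 with DESeq2 and with the exact permutation test (Rnu12 and Rnu1b6) and 0 with the code letter as a term or with libraries of letter G only. Leaving out a library, it was 1 to 1. For Rnu12 the difference lay between 0.49 and 0.75 without 1 library. Other snRNA features called after adjustment rose from 0 to 1 with DESeq2 (Gm24525). Those higher at an unadjusted p under 0.05 were 11, and 23 by permutation, 20 with no filter (of 509 features in place of 109), 5 with scaling to the snRNA total, 7 without PS19 replicate 1, 1 with the letter term and 0 for letter G. Those lower were 0, and 12 of 509 with no filter, 1 with the snRNA total or the replicate block, and 0 to 1 without 1 library (1 without PS19 replicate 1 and without WT replicates 2, 3, 6 or 7). Among the named snRNAs, signs turned for Rnu1a1 to 0.0525 and 0.0177 without WT replicates 2 and 7 (range -0.113 to 0.0525), Rnu1b1 and Rnu1b2 to -0.178 with the letter term and with letter G only and to -0.0165 with the snRNA total, and Rnu5g to 0.0620 with the letter term and with letter G only. Of the unnamed features, 8 of 15 U2 and 8 of 8 U5 features also turned with the letter term. The cause was not tested. Gm24525 as a percent of Rnu12 differed by 18.2 percentage points in letter G libraries (exact permutation p = 0.111, 8 against 2 libraries).

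The replicate numbers of PS19 and WT mice were not treated as pairs. The correlations of same-numbered deviations were positive for all 8 numbers (0.0446 to 0.456), but only 6 exceeded the 0.1 required of each, and numbers 1 and 7 alone matched best with their own. Some shared structure by number is thus a hint from the data, which the labels do not explain. A replicate block leaves each difference as it is (0.66 for Rnu12) and changes its error, which gave a limma adjusted p of 0.593 for Rnu12 and 0 named snRNAs past the adjusted test. Rnu6-ps2, at 0 to 3 reads, did not pass the filter, and why its counts were low was not tested.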
